A study of Mus musculus with 6 samples.

Results

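The cytosolic ribosomal protein genes were examined in macrophages sorted from mouse bone marrow before and after engraftment of a human lymphoma. Members were the genes whose symbol is that of a large subunit protein (Rpl), a small subunit protein (Rps), an acidic stalk protein (Rplp) or Rpsa. Symbols of processed pseudogenes, which end in -ps, were not taken. The rule found 82 of the 17528 listed genes, 50 of the large and 32 of the small subunit, and all 82 entered the test. The GENCODE annotation calls 79 of them protein-coding and calls Rpl32l, Rpl6l and Rps4l pseudogenes.

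Day 0 was 2 libraries of mice that were not engrafted. Day 4 and day 18 were 2 libraries each, taken that many days after mice received Raji cells, a human Burkitt lymphoma line, into a vein. All 3 groups were BALB/c mice of the genotype RAG2-/-γc-/-, which lacks mature T, B and NK cells, so the day 0 mice carry the same deletions. Cells were sorted from the femur as CD11b+F4/80+. No group of a sham injection or of ungrafted mice of the later days was analysed here, so graft and time since day 0 cannot be told apart. Whether the libraries of 1 day came from separate mice is not in the labels. The p-values measure only the spread between these libraries, estimated largely from other genes of similar level. The libraries are called A and B after the deposited columns and held 20073029 to 23214535 reads assigned to listed genes.

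A ribosome is built of ribosomal RNA and equal numbers of most of these proteins, and their mRNAs are made in similar amounts and are among the most abundant in growing cells. Their mRNAs begin with a run of C and T, the 5′ terminal oligopyrimidine (TOP) tract, through which mTOR signalling sets how well they are translated. In mammals each of these proteins usually has 1 working gene with introns, and many processed pseudogenes that were copied from its mRNA and inserted elsewhere. A short read from the mRNA can match the gene and its copies equally well.

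Promoters of members are shown with the tract that marks this family. Each line gives 40 bases before and 20 from the RefSeq start of transcription on the GRCm38.p6 assembly, 5′ to 3′ on the gene's strand, with the tract at the start in capitals.
Rps6 (chr4:86857348-86857407, minus strand): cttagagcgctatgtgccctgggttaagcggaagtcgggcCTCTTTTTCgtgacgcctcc
Rpl15 (chr14:18270967-18271026, minus strand): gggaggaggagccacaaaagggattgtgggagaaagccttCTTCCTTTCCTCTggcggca
Rps10 (chr17:27635225-27635284, minus strand): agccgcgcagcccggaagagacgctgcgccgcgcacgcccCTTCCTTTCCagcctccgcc
Rplp2 (chr7:141447611-141447670, plus strand): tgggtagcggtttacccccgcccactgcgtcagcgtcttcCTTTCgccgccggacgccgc
Of the 82 members, 60 matched a RefSeq promoter. A tract of at least 5 bases, a C at the annotated start and then only C or T, stood in 14 of the 60 (23.3%), against 3.01% of all 27025 promoters and 3.09% of those of tested genes. Among the 14 was Rpl32l, which GENCODE calls a pseudogene. A tract that begins a few bases from the annotated start was not counted. CGGAAG, the core of the sites bound by ETS factors, stood on either strand in 41 of the 60 (68.3%), against 18.8% of all promoters and 35.4% of those of tested genes, within 250 bases before to 50 after the start. The windows of Rps6 and Rps10 printed above hold it. GGGCGG, the GC box, stood in 60.0% of members' promoters, against 38.2% of all promoters and 66.6% of those of tested genes. AAGATGG stood in 15% of members' promoters, against 7.28% of all and 8.58% of tested genes. TATAAA stood in 11.7%, against 15.7% of all and 8.93% of tested genes, so for GGGCGG and TATAAA the direction turns with the promoters compared. CGGAAG and AAGATGG can overlap by their shared AAG. A match describes the sequence only. The change at day 18 had a median of 0.49 on the log2 scale in the 14 members with a tract and of 0.52 in the 46 without.

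Copies carried much of the family's signal. Of the 82 members, 74 had at least 1 listed near-identical copy (at least 90% identity over at least 50% of the copy's length), and there were 362 copies in all, on 20 chromosomes, with a median identity of 98.4%. GENCODE calls 339 of them processed pseudogenes, 13 transcribed processed pseudogenes, 9 protein-coding and 1 a lincRNA. Reads from any transcripts of their own could not be told from those of the member. The median member had 4 copies and Rpl7a had the most, 18. Over all members, 41.0% to 41.4% of the family's reads in a library stood on the member rows and the rest on copies. Reads that match several genes appear divided in the deposited table: 35 members had no library with a whole number of reads, and only Rpl32l, Rpl3l, Rps27l and Rps4l had whole reads in all 6. A group of 4 copies of Rpl35a (Rpl35a-ps2, Rpl35a-ps3, Rpl35a-ps4 and Rpl35a-ps6), whose transcripts have the same 333 bases on chromosomes 1, 17, 2 and 5, were listed with equal values in every library, such as 13.6 reads per 1000000 assigned reads (RPM) in day 0 A and 19.2 RPM in day 18 B.

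The first 90 coding bases of a member and of its copy are shown because they differ at 1 base or at none. Capitals mark the base at which gene and copy differ.
Rpl3: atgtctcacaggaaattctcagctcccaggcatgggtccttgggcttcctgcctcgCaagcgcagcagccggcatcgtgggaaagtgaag
Rpl3-ps1: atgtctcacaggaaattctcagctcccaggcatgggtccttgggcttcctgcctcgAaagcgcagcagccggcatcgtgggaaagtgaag
Rps6 and Rps6-ps4: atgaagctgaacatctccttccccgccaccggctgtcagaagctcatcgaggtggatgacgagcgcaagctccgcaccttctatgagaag
Rpl3, a protein near the peptidyl transferase centre, and Rpl3-ps1 on the X chromosome differ at 2 of 1209 coding bases. Rps6, the substrate of S6 kinase, has the same 747 coding bases as Rps6-ps4 on chromosome 2. Of the 96 copies with a mean of at least 10 RPM, 20 had no difference from their member over the coding part, among them Rpl10-ps3, Gm15500 (a copy of Rpl5) and Rps27rt, and the median copy had 2 mismatches.

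How the reads were divided differed widely among members. Rpl8 and Rplp2 had no listed copy, and Rpl32 (99.9%), Rpl22 (99.2%), Rps15 (97.8%), Rps3 (95.5%) and Rpl4 (94.1%) had nearly all of their reads on their own row. At the other end stood Rpl23a (0.389%), Rpl29 (0.54%), Rps7 (0.623%) and Rpl26 (0.649%). In all, 26 members had under 10% of their reads on their own row and 16 at least 90%. The row of Rpl3 averaged 19.95 RPM and Rpl3-ps1 352.4 RPM over the 6 libraries. Rpl10 averaged 21.2 RPM and Rpl10-ps3 400.03 RPM, and Rps6 averaged 44.3 RPM and Rps6-ps4 389.3 RPM. Each value below is therefore given for the row as deposited and, where it matters, for the row with its copies added. Adding the copies was chosen after the values were seen.

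**Figure D1:**
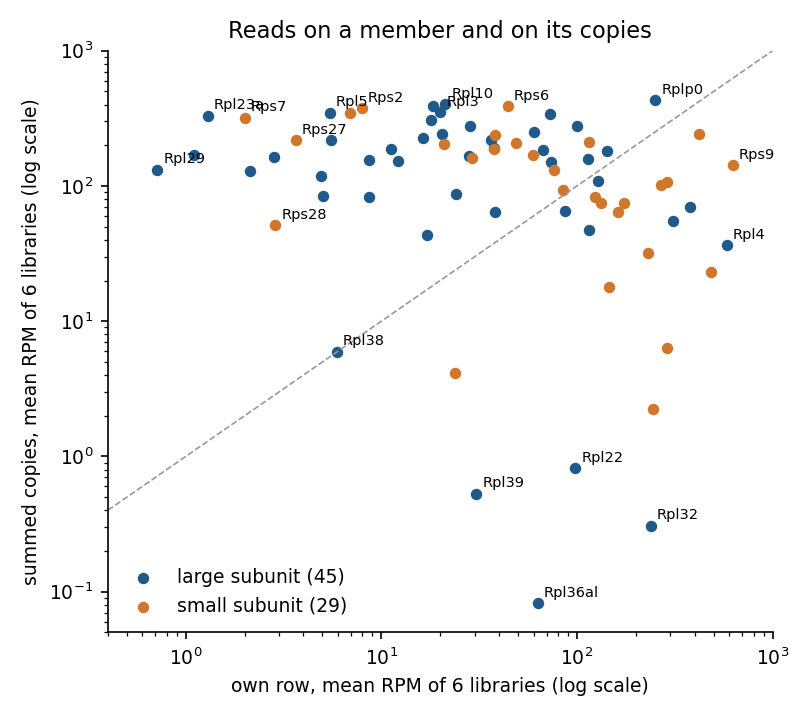
Mean RPM over the 6 libraries on a member's own row (x axis, log scale) and on its summed copies (y axis, log scale), 1 point for each of the 74 members with a copy, coloured by subunit; the dashed line marks equal values. Members on the left, such as Rpl29, Rpl23a and Rps7, had under 1% of their reads on their own row, while Rpl22 and Rpl32 had over 99% there.

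Levels were compared between genes per kilobase of coding sequence, over the 78 protein-coding members other than Rpl3l. On their own rows they spread over a quartile range of 28.6 to 328.1 RPM per coding kilobase, an 11.5-fold range. With the copies added the quartiles were 399.6 and 593.6 RPM per coding kilobase, a 1.49-fold range around a median of 496.7. The outer values were Rpl38 at 56.6 and Rpl41, which encodes the shortest protein of the family in 75 coding bases, at 3636 RPM per coding kilobase with copies. Untranslated bases were not counted in these lengths, which weighs most for the shortest genes. Over the 6 libraries, the 5 highest row means were those of Rps9, Rpl4, Rps3, Rpsa and Rpl8, at 410 to 624 RPM. This scale is not per length and leaves out copies.

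The family's summed level was higher on each later day. Its rows summed to 6858 and 6751 RPM in the libraries of day 0, to 7862 and 8399 RPM in those of day 4 and to 10004 and 10277 RPM in those of day 18. As a share of assigned reads the rows held 0.680% ± 0.00758 at day 0, 0.813% ± 0.038 at day 4 and 1.01% ± 0.0193 at day 18 (SD, n = 2 each). The copies held 0.967% ± 0.0159 of reads (day 0), 1.16% ± 0.0498 (day 4) and 1.45% ± 0.0121 (day 18). Rows and copies together made up 2.46% ± 0.0315 of reads at day 18, against 1.65% ± 0.0235 at day 0, a ratio of 1.49, and 1.97% ± 0.0878 at day 4, a ratio of 1.20 to day 0. Day by day the libraries did not overlap, and the spread was widest at day 4, where library B was above library A. A permutation of 2 libraries against 2 allows no p under 0.05, and these sums were not tested.

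**Figure D2:**
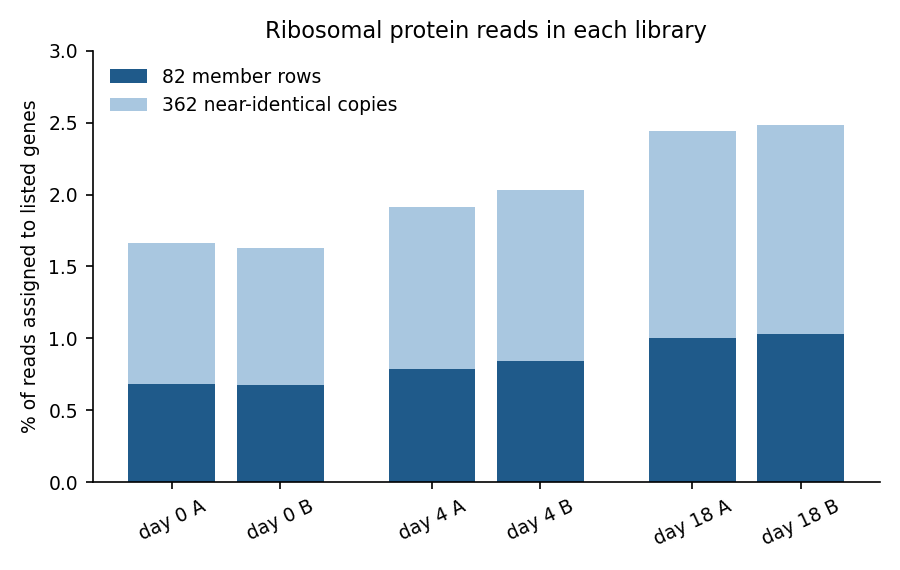
Percent of the reads assigned to listed genes (y axis) on the 82 member rows (dark) and on their 362 copies (light), 1 bar for each library. The summed share was between 1.63% and 1.66% at day 0, between 1.91% and 2.03% at day 4, and between 2.44% and 2.48% at day 18.

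Both subunits held a larger share at day 18. With copies, the large subunit held 1.4% ± 0.0206 of reads at day 18, against 0.931% ± 0.0143 at day 0 (ratio 1.5). The small subunit held 1.06% ± 0.0109 at day 18, against 0.716% ± 0.00924 at day 0 (ratio 1.49). The small subunit's sum divided by that of the large subunit was 0.768 and 0.771 in the libraries of day 0, 0.762 and 0.764 in those of day 4 and 0.765 and 0.760 in those of day 18.

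At day 18 against day 0, 57 of the 82 member rows were called higher and 0 lower at an adjusted p under 0.05 (limma, Benjamini-Hochberg over 14304 genes). Of all tested genes, 18.0% were called higher and 17.3% lower. The members' median log2 change was 0.53, a 1.44-fold rise, beside 0.02 over all tested genes. At an unadjusted p under 0.05 there were 60 member rows higher and 0 lower, where 22.1% of all tested genes were higher and 20.7% lower. Both libraries of day 18 lay above both of day 0 in 73 of the 82 rows, and in 34.8% of all tested genes, and in 80 members with copies (34.7%). With the copies added to their member, 72 were called higher and 0 lower (18.1% of all genes called higher and 17.1% lower), with a median of 0.50 and the middle 50% of members between 1.35-fold and 1.52-fold. At an unadjusted p under 0.05 these counts were 76 and 0, where 22.3% of all genes were higher and 20.7% lower. Members with under 10% of their reads on their own row were called in 11 of 26 cases as rows and in 23 of 26 with copies, while those with at least 90% were called in 12 of 16 cases on either scale.

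Members of both subunits were among those with the smallest p. Rps9, an early-binding protein of the small subunit, had 789 and 791 RPM in the day 18 libraries, against 489 and 490 RPM in the day 0 libraries (log2 change 0.60, SE 0.027, adjusted p = 1.41e-15). Rps19, the gene most often mutated in Diamond-Blackfan anaemia in humans, had 165 and 176 RPM at day 18, against 98.8 and 97.1 RPM at day 0 (0.72, SE 0.044, adjusted p = 2.68e-13). Both were apart from day 0 by several times the gap between their libraries. Rpl4, which lines the peptide exit tunnel, had 680 and 696 RPM at day 18, against 501 and 483 RPM at day 0 (0.40, SE 0.025, adjusted p = 3.90e-13). Rpl8, a core protein of the large subunit with no listed copy, had 480 and 494 RPM at day 18, against 332 and 339 RPM at day 0 (0.45, SE 0.029, adjusted p = 7.37e-13). Rps3, which lines the mRNA entry channel, had 566 and 577 RPM at day 18, against 408 and 409 RPM at day 0 (0.40, SE 0.026, adjusted p = 8.40e-13). Rpl8 had no listed copy, and Rps3 and Rpl4 had few of their reads on copies. These rises therefore do not rest on the addition of copies.

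Rpsa, the laminin receptor homologue that sits on the small subunit, had 487 and 499 RPM at day 18, against 354 and 365 RPM at day 0 (0.37, SE 0.028, adjusted p = 1.77e-11). The stalk of the large subunit, which recruits elongation factors, is made of the protein of Rplp0 and of dimers of those of Rplp1 and Rplp2. Rplp0 had 310 and 309 RPM at day 18, against 217 and 209 RPM at day 0 (0.45, SE 0.037, adjusted p = 1.34e-10). Rplp1 had 146 and 151 RPM at day 18, against 80.7 and 91.6 RPM at day 0 (0.70, SE 0.052, adjusted p = 3.28e-11). Rplp2 had 99.7 and 108 RPM at day 18, against 56.7 and 57.4 RPM at day 0 (0.78, SE 0.096, adjusted p = 0.000208). All 3 stalk genes rose, the 2 small acidic proteins' mRNAs by more than that of Rplp0 in log2 terms, a difference that was not tested. With copies the log2 change at day 18 was 0.54 for Rplp0, 0.71 for Rplp1 and 0.78 for Rplp2.

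Members with most of their reads on copies also rose with these counted. Rpl3 with its 6 copies had 464 and 466 RPM at day 18, against 298.6 and 299.5 RPM at day 0 (0.55, SE 0.028, adjusted p = 2.05e-15). Rpl10, whose protein joins late in the maturation of the large subunit, had 555 and 534 RPM with copies at day 18, against 331 and 334 RPM at day 0 (0.63, SE 0.031, adjusted p = 1.84e-15). Rps6 had 537 and 526 RPM with copies at day 18, against 372 and 353 RPM at day 0 (0.47, SE 0.029, adjusted p = 1.93e-13). Rpl5, which with 5S rRNA and Rpl11 binds Mdm2, had 425 and 444 RPM with copies at day 18, against 289 and 283 RPM at day 0 (0.52, SE 0.030, adjusted p = 3.64e-14), while its own row was not called (0.30, SE 0.19, adjusted p = 0.252).

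The sizes of the rise with copies ran from 0.20 to 0.94 on the log2 scale over the 78 protein-coding members other than Rpl3l. At the upper end were Rpl39 (0.94, SE 0.14, adjusted p = 0.000222), Rplp2 and Rps19 (0.77, SE 0.035, adjusted p = 3.43e-16); Rps28 lay at 0.93 but with an SE of 0.39 was not called (adjusted p = 0.190). The value of 0.20 was that of Rps27l, which has no listed copy and whose row was not called. At the lower end of those called were Rpl9 (0.29, SE 0.031, adjusted p = 1.81e-08), Rps24 (0.32, SE 0.028, adjusted p = 3.96e-10), Rpl7 (0.32, SE 0.026, adjusted p = 5.35e-11) and Rpsa (0.34, SE 0.024, adjusted p = 2.77e-12). With copies, 71 of the 82 members had both libraries of each day above both of the day before in RPM, as had 12.2% of all tested genes.

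**Figure D3:**
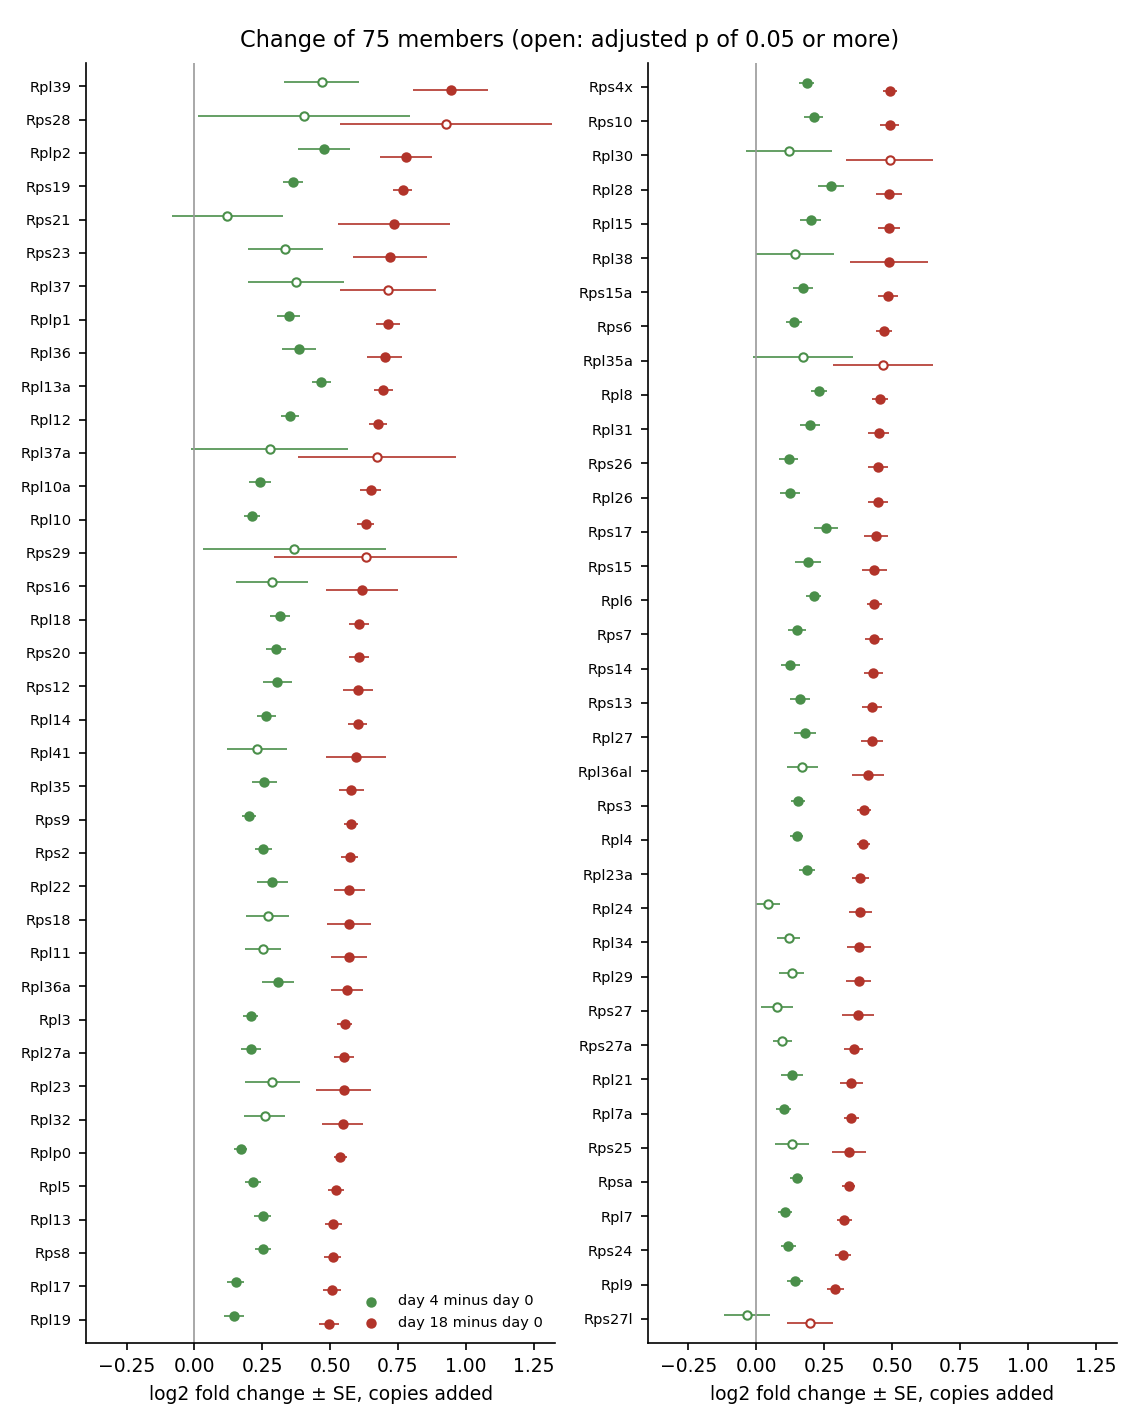
Log2 fold change with its standard error (x axis) for 75 protein-coding members with their copies added, sorted by the change at day 18 from the top left; green is day 4 minus day 0, red is day 18 minus day 0, and open symbols were not called at an adjusted p under 0.05. Nearly all points at day 18 lie between 0.29 and 0.78, those at day 4 lie closer to 0, and the widest bars belong to Rps28, Rps29 and Rpl37a.

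Day 4 held a smaller rise. Against day 0, 28 of the 82 member rows were called higher and 1 lower, where 5.48% of all tested genes were called higher and 6.66% lower. At an unadjusted p under 0.05, 46 rows were higher and 1 lower, where 11.8% of all tested genes were higher and 12.5% lower. The median log2 change of the member rows was 0.21, a 1.16-fold rise, beside 0.00 over all tested genes. With copies 55 were called higher and 0 lower (5.63% of all genes called higher and 6.78% lower), with a median of 0.21 and the middle 50% of members between 1.11-fold and 1.22-fold; at an unadjusted p under 0.05 there were 64 higher and 0 lower, where 11.9% of all genes were higher and 12.6% lower. Both libraries of day 4 lay above both of day 0 in 53 rows (25.6% of all tested genes) and in 70 members with copies (25.7% of all genes). These counts depend on the model: with 1 spread for genes of all levels no member and no gene at all was called at day 4, on the RPKM scale 0 members were called, and 998 genes were called without day 0 A and 916 without day 0 B, against 1736 with all libraries.

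Rpl13a, Rps9 and Rpl8 were among the rows with the smallest p at day 4. Rpl13a, whose protein also silences inflammatory mRNAs in interferon-treated human monocytes, had 306 and 336 RPM at day 4, against 226 and 229 RPM at day 0 (0.44, SE 0.036, adjusted p = 7.31e-09), and 382 and 383 RPM at day 18. Rps9 had 574 and 613 RPM at day 4 (0.22, SE 0.027, adjusted p = 1.51e-06), and Rpl8 had 401 and 416 RPM at day 4 (0.23, SE 0.029, adjusted p = 2.32e-06), against the day 0 values above. In each of the 3 the libraries of the 3 days did not overlap.

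Rpl15 was the row called lower at day 4, with 53.2 and 57.7 RPM at day 4, against 61.6 and 62.6 RPM at day 0 (-0.22, SE 0.061, adjusted p = 0.0170). The call was lost without day 0 A, day 0 B or day 4 A. With its 10 copies Rpl15 had 232 and 255 RPM at day 4, against 210 and 198 RPM at day 0 (0.20, SE 0.040, adjusted p = 0.00111), so the sign turned with the treatment of shared reads. Its row at day 18, 81.1 and 86.7 RPM, was higher than at day 0 (0.35, SE 0.061, adjusted p = 4.03e-05).

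Between day 4 and day 18 the rise went on. At day 18 against day 4, 46 of the 82 rows were called higher and 0 lower, where 14.0% of all tested genes were called higher and 12.1% lower; at an unadjusted p under 0.05 there were 52 higher and 0 lower, where 18.1% of all tested genes were higher and 16.8% lower. With copies the counts were 66 and 0, where 14.0% of all genes were called higher and 12.1% lower, and 70 and 0 at an unadjusted p under 0.05, where 18.3% were higher and 16.8% lower. Both libraries of day 18 lay above both of day 4 in 62 rows (30.0% of all tested genes) and in 78 members with copies (30.1%). The median log2 change of rows was 0.30, a 1.23-fold rise, beside 0.01 over all tested genes. With 1 spread for all levels 9 rows were called, and 18 members with copies. Among the smallest p were those of Rps9 (0.38, SE 0.027, adjusted p = 2.51e-11), of Rplp0, with 310 and 309 RPM at day 18, against 223 and 243 RPM at day 4 (0.38, SE 0.037, adjusted p = 6.81e-09), and of Rpl4 (0.25, SE 0.025, adjusted p = 8.85e-09). Day 4 and day 18 are both set against the same day 0 libraries, so their changes are not independent of each other.

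**Figure D4:**
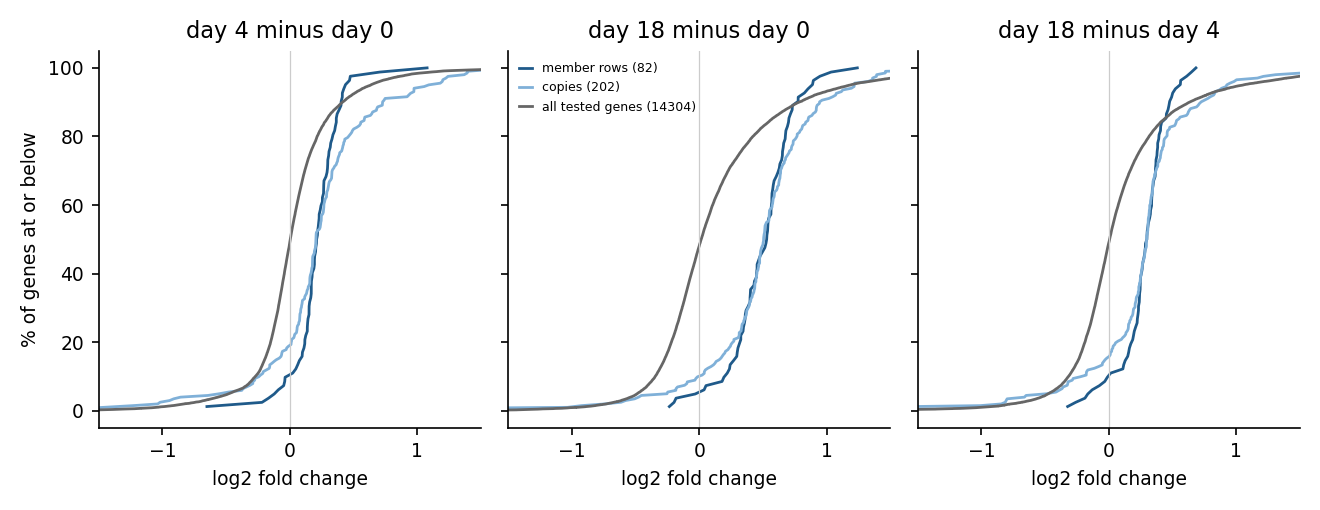
Cumulative percent of genes (y axis) at or below a log2 fold change (x axis, shown from -1.5 to 1.5) for the 82 member rows, 202 tested copies and 14304 tested genes, in 3 comparisons. The medians of members and copies lie at 0.21 and 0.21 for day 4 minus day 0, at 0.53 and 0.51 for day 18 minus day 0 and at 0.30 and 0.30 for day 18 minus day 4, to the right of all tested genes at 0.00, 0.02 and 0.01.

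Paralogue variants were mixed. Rps27l, a p53-induced paralogue of Rps27 with no listed copy, had 27.5 and 27.8 RPM at day 0, 27.0 and 29.0 RPM at day 4 and 33.9 and 33.2 RPM at day 18. It was not called at day 18 against day 0 (0.19, SE 0.084, adjusted p = 0.0774), and was called at day 18 against day 4 (0.23, SE 0.084, adjusted p = 0.0449). Its parent Rps27 had 1.64% of its reads on its own row and, with copies, 269 and 260 RPM at day 18, against 192 and 194 RPM at day 0 (0.37, SE 0.059, adjusted p = 0.000649). Rpl3l, the striated muscle paralogue of Rpl3, was near the detection limit with 0.399 and 0.354 RPM at day 18, against 0.215 and 0.805 RPM at day 0. Rps4l had 2.39 and 3.27 RPM at day 18, against 2.46 and 2.68 RPM at day 0 (0.04, SE 0.27, adjusted p = 0.934), while its parent Rps4x, on the X chromosome, had 347 and 354 RPM at day 18, against 239 and 236 RPM at day 0 (0.48, SE 0.031, adjusted p = 9.53e-13). Rpl36al, an autosomal paralogue of Rpl36a, had 75.5 and 72.9 RPM at day 18, against 53.4 and 52.3 RPM at day 0 (0.40, SE 0.059, adjusted p = 3.26e-06). Rpl36a with copies had 111 and 113 RPM at day 18, against 74.0 and 68.8 RPM at day 0 (0.56, SE 0.058, adjusted p = 1.39e-08). Differences between paralogues were not tested. With copies, 9 members were called in no comparison: Rpl30, Rpl32l, Rpl35a, Rpl37, Rpl37a, Rpl3l, Rps28, Rps29 and Rps4l.

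Several of the uncalled members are short, and short members differed most between the 2 libraries of a day. The log2 ratio of library B to library A was taken for each member with copies. In the 10 members with under 300 coding bases its median was -0.17 (day 0), 0.44 (day 4) and 0.07 (day 18), beside -0.02, 0.07 and 0.03 in the 68 longer members. At day 4 all 10 were higher in B. Rps29 had 125 RPM in day 4 A and 215 RPM in day 4 B, and Rps28 had 36.8 and 67.7 RPM there, both with copies. Rps29 had 136 RPM in day 0 A and 110 RPM in day 0 B, and 199 and 202 RPM in the libraries of day 18. Across the 78 members Spearman's rho between coding length and that ratio was 0.31 at day 0, -0.67 at day 4 and -0.20 at day 18, a description over genes of the same libraries. The short members had a median log2 change of 0.65 at day 18 against day 0 with a median SE of 0.16, and 5 of 10 were called; the longer ones had 0.49 with an SE of 0.037, and 66 of 68 were called. What sets short members apart between libraries was not tested.

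**Figure D5:**
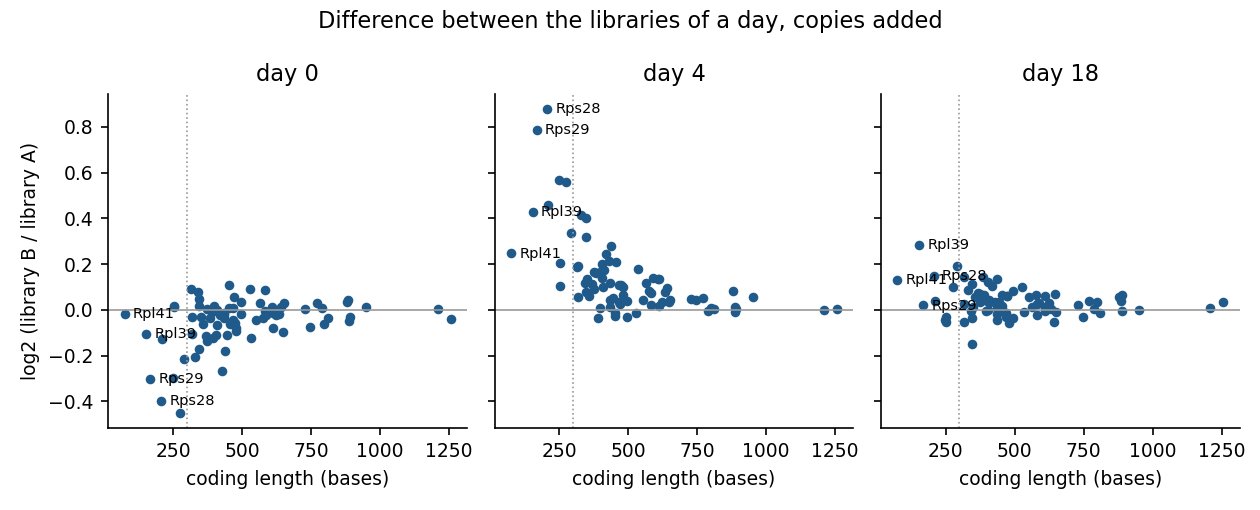
Log2 ratio of library B to library A (y axis) against coding length in bases (x axis), 1 point for each of 78 members with copies added, 1 panel for each day; the dotted line marks 300 bases. At day 4 the short members lie between 0.11 and 0.88, at day 0 between -0.45 and 0.01, and at day 18 between -0.05 and 0.28.

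Genes next to the family in function were set beside it. The rule does not take 9 further genes of the cytosolic ribosome or with similar symbols. Of these, 7 were called higher and 0 lower at day 18 against day 0, with a median log2 change of 0.41. The shares over all tested genes were 18.0% higher and 17.3% lower. Rps27rt and Rpl9-ps6, both among those called, are also copies of Rps27 and Rpl9. Their reads are therefore already part of the values given with copies. Rack1, the scaffold protein of the small subunit, had 483 and 497 RPM at day 18, against 314 and 310 RPM at day 0 (0.57, SE 0.028, adjusted p = 2.79e-15). Fau, which encodes the small subunit protein eS30 fused to a ubiquitin-like part, had 38.6 and 44.3 RPM at day 18, against 27.4 and 27.8 RPM at day 0 (0.50, SE 0.085, adjusted p = 3.26e-05). Rpl7l1, a paralogue of Rpl7, had 85.7 and 80.0 RPM at day 18, against 79.9 and 82.2 RPM at day 0 (-0.05, SE 0.053, adjusted p = 0.477). Rps19bp1, whose symbol names a binder of Rps19 and not a ribosomal protein, was not called either (0.12, SE 0.18, adjusted p = 0.641).

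Of 24 other mRNAs known to start with a TOP tract, 20 were called higher and 0 lower at day 18 (median 0.30), and 8 higher and 1 lower at day 4. Over all tested genes the shares were 18.0% higher and 17.3% lower at day 18, and 5.48% and 6.66% at day 4. Eef1a1, the factor that brings tRNAs to the ribosome, had 3028 and 3072 RPM at day 18, against 1928 and 1922 RPM at day 0 (0.58, SE 0.015, adjusted p = 2.18e-21). Eef2, the translocation factor, had 1318 and 1332 RPM at day 18, against 867 and 872 RPM at day 0 (0.52, SE 0.019, adjusted p = 5.09e-18). Eef1b2, which recharges Eef1a1, had 196 and 199.5 RPM at day 18, against 131 and 127 RPM at day 0 (0.53, SE 0.040, adjusted p = 2.36e-11). Of 14 tested hosts of small nucleolar RNAs, several of which are TOP mRNAs too, 9 were called higher and 0 lower at day 18 (median 0.50), among them Snhg5 (0.47, SE 0.090, adjusted p = 0.000129).

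Other parts of the translation machinery were set beside these. Of 32 genes of initiation, elongation and their control, 6 were called higher and 7 lower at day 18 against day 0, shares near the 18.0% and 17.3% of all tested genes, with a median of -0.05, and the list's sum was 4245 and 4238 RPM at day 18, against 4128 and 4088 RPM at day 0. Eif4a1, the helicase of initiation, rose (0.38, SE 0.047, adjusted p = 2.07e-07), and Eif4g2, a scaffold of cap-independent initiation, fell (-0.11, SE 0.020, adjusted p = 6.82e-05). Of 55 genes of RNA polymerase I and ribosome assembly, 25 were called higher and 2 lower at day 18 (median 0.25). Fbl, the methyltransferase of rRNA, rose (0.72, SE 0.14, adjusted p = 0.000209), as did Heatr1 (0.66, SE 0.096, adjusted p = 3.14e-06), while Ubtf, the activator of RNA polymerase I, fell (-0.21, SE 0.041, adjusted p = 0.000120). Of 78 mitochondrial ribosomal protein genes, 15 were called higher and 2 lower at day 18 (median 0.09). The share of risers was close to the 18.0% of all tested genes, while the share called lower was below their 17.3%. Mrpl52 had 15.7 and 18.8 RPM at day 18, against 2.89 and 3.35 RPM at day 0 (2.35, SE 0.18, adjusted p = 4.76e-11).

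Across the 6 libraries, the genes most like the mean centred log2 level of the members, among 8853 whose mean log2 level reached 3, were 4 copies and Bag3. Pearson's r was 0.995 for Rps18-ps6 and Gm13841 (a copy of Rpl29), and 0.994 for Bag3, a cochaperone of Hsp70. The mean centred level was -0.24 in both libraries of day 0, -0.10 and 0.06 in those of day 4, and 0.24 and 0.28 in those of day 18, so that r follows a rise over 3 days in few points. Leaving out copies, Gm14494, Slc25a3, Klf13 and Cstdc6 came next at 0.989 to 0.992.

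Markers of cell types and states changed over the same days. Macrophage and monocyte markers summed to 4421 and 4405 RPM at day 18, against 3767 and 3758 RPM at day 0, with 14 of 16 called higher and 2 lower, and Adgre1, which encodes F4/80, had 62.8 and 63.7 RPM at day 18, against 34.2 and 32.8 RPM at day 0. The 2 called lower were Itgam, which encodes CD11b, the other marker of the sort, with 1995 and 1967 RPM at day 18, against 2229 and 2247 RPM at day 0 (-0.26, SE 0.015, adjusted p = 1.30e-13), and Ly6c2, with 637 and 628 RPM at day 18, against 674 and 643 RPM at day 0 (-0.14, SE 0.025, adjusted p = 4.70e-05). Late neutrophil markers summed to 111116 and 111869 RPM at day 18, against 141132 and 141215 RPM at day 0, with 10 of 13 called lower and 1 higher, so the sort held much RNA of neutrophil genes in every library. Proliferation markers summed to 4009 and 3977 RPM at day 18, against 4957 and 4999.98 RPM at day 0, with 19 of 20 called lower. Dissociation and immediate early genes summed to 4351 and 4382 RPM at day 18, against 2840 and 2819 RPM at day 0, with 11 of 12 called higher and 1 lower. At day 4 the same lists had 8 higher and 6 lower of 16, 0 and 10 of 13, 2 and 5 of 20, and 2 and 1 of 12. Early neutrophil and granule markers had 6 of 9 higher and 1 lower at day 4 against day 0, and 5 higher and 3 lower at day 18 against day 0; Mpo had 1160 and 1160 RPM at day 0, 2000 and 1995 RPM at day 4, and 1432 and 1451 RPM at day 18. Erythroid markers had 5 of 8 lower and 0 higher at day 4, and 4 higher and 0 lower at day 18, with a sum of 245 and 259 RPM at day 0, 143 and 140.4 RPM at day 4, and 380 and 390 RPM at day 18. Of 10 tested haematopoietic progenitor markers, 2 were higher and 0 lower at day 4, and 2 higher and 2 lower at day 18. Among all tested genes, 5.48% were called higher and 6.66% lower at day 4, and 18.0% and 17.3% at day 18. The progenitor counts at day 18 were near these shares. The part of each in the rise of ribosomal protein mRNAs was not tested. In bulk samples, a change in the number of cells of a type and a change of RNA per cell cannot be told apart.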

How the data were processed

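RNA of 6 libraries was sequenced (2 each at day 0, day 4 and day 18), and reads were aligned with STAR 2.5.3a to mm10 per the submitters' processing notes; which counting tool and annotation were used is not given in the sources used here. For each gene and library the authors deposited 1 RPKM value, per kilobase of the whole gene with introns, although the table's name calls the values raw counts. Multiplied by that length in kilobases, each library sums to 1000000 (RPM), and the steps between low values give its reads, 20073029 to 23214535 per library. In a library 77.5% to 78.9% of genes had whole reads (within 0.05 reads plus 1e-05 of the gene's reads); the count test planned for counts was therefore replaced by limma. The table lists mouse genes only, so reads of human cells that aligned to them could not be set apart.

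RPM was scaled by trimmed means of M values. Genes with at least 10 reads at the median library size in at least 2 libraries and 15 in all were tested (14304) on log2(RPM + 0.1) with limma 3.58.1 in R 4.3.3, fitting the 6 libraries together with a mean-dependent spread and robust moderation, and Benjamini-Hochberg adjustment over all tested genes. On this scale the changes of low genes are understated. A gene's own spread had 3 residual degrees of freedom, beside a median of 22.9 taken from genes of similar level. Copies were found with blastn 2.17.0 among the transcripts of GENCODE M21 on the same build; positions are those of RefSeq for promoters. On simulated libraries of 13973 genes with 200 changed at day 18 against day 0, the test recovered 79% of changes of 0.5 and 100% of changes of 1 on the log2 scale and called 2 unchanged genes. The simulated reads were whole, with the dispersion fixed at 0.003 for all genes, and only genes above a minimum level were changed. These rates may therefore not hold for low genes or for rows with divided reads. Tables were read with Python 3.11.15 and pandas 2.3.3.

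The members, lists and rules were chosen with earlier results of these data known. Any member may be named; given in full were the 4 with the smallest p in each direction and comparison, the 5 with the highest level, paralogue pairs, stalk genes and Rpsa. Values of 3 single members are not reported here; they stay in all counts, sums and medians. Members named for their copies, their length or the size of their change were chosen after their values were seen, as were Rpl7l1 and Rps19bp1. Of other lists up to 3 genes with the smallest p were named. The 2 libraries of a day share only a column letter with those of other days: the deviations of same-lettered libraries correlated at -0.10, 0.03 and -0.01, and the letters are in no label.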

Additional observations from a re-analysis of the deposited data

How the results depend on the processing

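The direction of the members' median held under all 4 scalings tried (trimmed means with and without the members, median of ratios and library totals). With library totals in place of trimmed means the median of all tested genes moved to 0.06, 0.10 and 0.04 on the log2 scale (day 4 minus day 0, day 18 minus day 0, day 18 minus day 4), the split of all calls moved to 1261 higher and 461 lower, 3432 and 1423, and 2239 and 1338, against 784 and 952, 2579 and 2469, and 1997 and 1729 as reported, and the members' medians were 0.27, 0.62 and 0.33. For day 4 minus day 0 the 28 rows called higher became 0 on the RPKM scale, 0 with 1 spread for all levels, 0 with whole reads only (which leaves 4 members) and 55 with copies added; the 1 row called lower, Rpl15, became 0 with library totals, the RPKM scale, 1 spread, whole reads only and copies added, where Rpl15 turned to 0.20. The 1736 genes called there became 95 on the RPKM scale and 0 with 1 spread. With copies added, the 55 members became 0 with 1 spread. For day 18 minus day 0 the 57 rows became 0 with whole reads only, 50 on the RPKM scale and 40 with 1 spread. The 72 members with copies became 67 with 1 spread. The 5048 genes became 3376 on the RPKM scale and 2646 with 1 spread. For day 18 minus day 4 the 46 rows became 27 on the RPKM scale, 9 with 1 spread and 1 with whole reads only, the 66 members with copies became 18 with 1 spread, and the 3726 genes became 2130 and 1352 on the RPKM scale and with 1 spread. The cause was not tested other than for whole reads. Leaving out each library in turn, rows called higher ranged from 19 to 37, 51 to 62 and 35 to 51 in the 3 comparisons, rows called lower from 0 to 1 at day 4, members with copies from 42 to 71, 66 to 77 and 59 to 75, and genes from 916 to 1548, 3625 to 5391 and 2534 to 3619.

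The summed share of member rows (0.680%, 0.813% and 1.01% at day 0, day 4 and day 18) became 0.703% at day 0 and 0.987% at day 18 on the scaled level, 1.19%, 1.43% and 1.78% with the -ps pseudogenes, 0.854%, 1.00% and 1.22% without the 20 most abundant genes, 1.65%, 1.97% and 2.46% with all copies, and 0.00309%, 0.00322% and 0.00374% for the 4 members with whole reads. With the column letter as a replicate block, 29 rows were called higher and 1 lower at day 4, 56 and 0 at day 18 against day 0, and 47 and 0 at day 18 against day 4. Of 46 called results of named members, 22 kept their direction and their side of the threshold in all settings; over the settings 815 values did, 59 kept the direction only and 1 reversed. Members under about 1 RPM, such as Rpl3l and Rpl32l, could not show changes of the family's size at this depth.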

Other observations

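Rpl6l, called a processed pseudogene, had 68.1 and 65.4 RPM at day 18, against 50.3 and 41.1 RPM at day 0 (log2 change 0.47, SE 0.075, adjusted p = 1.89e-05, limma). Its row did not hold whole reads in every library. Members were not searched as copies of other members, so reads shared between Rpl6l and Rpl6 could not be set apart. Rpl32l, also called a pseudogene, had 0.648 and 0.619 RPM at day 18, against 0.215 and 0.179 RPM at day 0, and was not called (adjusted p = 0.119).

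Rps2-ps10 had 457 and 473 RPM at day 18, against 290.0 and 297 RPM at day 0 (0.58, SE 0.031, adjusted p = 1.70e-14), while the row of Rps2 itself had 8.88 and 9.53 RPM at day 18, against 6.83 and 7.89 RPM at day 0, and was not called (adjusted p = 0.308). Of 202 tested copies, 87 were called higher and 1 lower at day 18 against day 0, and 77 and 0 of the 96 with a mean of at least 10 RPM. In all tested genes the shares were 18.0% higher and 17.3% lower. Reads that match a member and its copies appear divided among them, so these calls are not independent of those of the members.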
